A study of Mus musculus with 2 samples.

Results

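The BRD2-bound chromatin loops of 100 to 500 kb in mouse embryonic stem cells are described here. They were chosen by length alone, as loops longer than 100000 bp and up to 500000 bp between their outer edges, and number 1199 of the 7732 loops listed, or 15.5% (exact 95% interval 14.7 to 16.3%). Loops were measured by ChIA-PET, which pulls down BRD2 with the chromatin it binds, ligates DNA ends that lie close together, and reads out by paired-end sequencing which places were joined. The series has 2 samples, labelled replicates 1 and 2 of the same wild-type, untreated V6.5 cells, an embryonic stem line of mixed strain background, so there is 1 group and no comparison of conditions. The cells grew on irradiated mouse embryonic fibroblasts in medium with serum and LIF, and no step that removes these feeder cells is given in the sources used here. The labelled cell type could not be checked against markers, since loops carry no expression values.

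BRD2 is a BET family protein. Its paired bromodomains bind acetylated histone tails, which mark active promoters and enhancers, and it has also been found together with the insulator protein CTCF. Distal enhancers reach their promoters by looping, and architectural loops held by CTCF and cohesin commonly span the distances considered here. A long BRD2 loop can therefore join a promoter to a remote enhancer, 2 regulatory clusters to each other, or the borders of a domain, and a loop list by itself does not tell these apart.

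The deposited values are a single list that the authors made from the merged dataset, per the file header. Each loop has a left edge, a right edge and a score. The spread between replicates and the sequencing depth behind a loop are unknown, so no test between replicates was possible and a loop that is not listed cannot be called absent. Intervals given below are exact binomial (Clopper-Pearson) 95% intervals over loops or anchors. They cover counting error only and treat loops as independent, although loops share anchors. Positions are those of mm9, the build named in the submitters' processing notes. Genes were not placed from an annotation, because the gene table used here is on another build. The few gene names below are background knowledge of where these genes lie on mm9, given for orientation and not tested. No sequence is printed, because the sequences used here are on that other build too.

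The long-range loops were mostly nearer to the lower than to the upper length limit. Their median length was 156 kb, with quartiles of 121 and 226 kb. Of the 1199 loops, 545 were up to 150 kb long and 246 were 150 to 200 kb. A further 167 were 200 to 250 kb, 93 were 250 to 300 kb, 94 were 300 to 400 kb and 54 were 400 to 500 kb. The number of loops per length bin fell across the whole range. Just outside and just inside the lower limit lay loops of 99992 bp and 100009 bp. At the upper limit the nearest loops were 498781 bp and 500348 bp long.

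**Figure D1:**
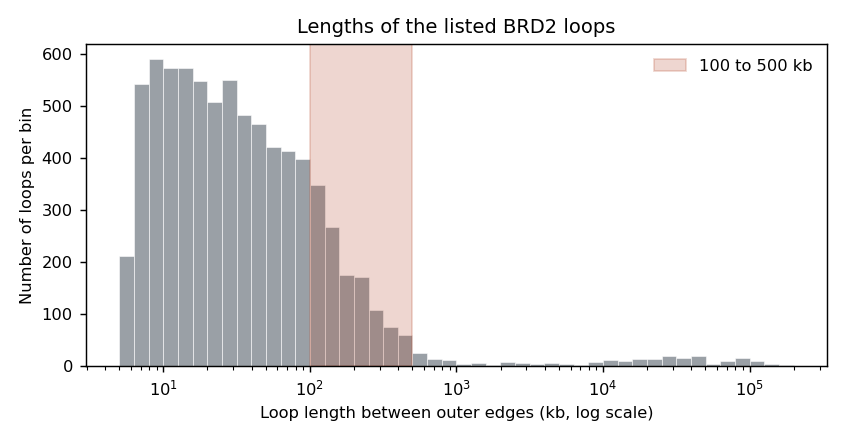
Number of listed loops per length bin, with length between the outer edges in kb on a log scale and the range of 100 to 500 kb shaded. The shaded range holds 1199 of the 7732 loops and lies on the falling side of the distribution, with 3232 loops of 20 to 100 kb to its left and 254 loops over 500 kb to its right.

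Most long-range loops had the lowest score of the list. The score is the authors' value for a loop, a multiple of 1000 throughout, whose unit no header states. A score of 2000 was held by 870 of the 1199 loops, 3000 by 211, 4000 by 66 and 5000 or more by 52. Of these 52, 9 had a score of 10000 or more, and the highest was 14000. The mean score was 2506 ± 1234 (SD over 1199 loops), against 2885 ± 1905 (SD over 3232 loops) for loops of 20 to 100 kb and 2126 ± 616 (SD over 254 loops) for loops over 500 kb. The long-range loops held 12.6% of the summed score of the list.

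Within the long-range loops the share above the lowest score was similar up to 200 kb and lower beyond 250 kb. It was 29.9% (26.1 to 33.9%) at 100 to 150 kb and 32.1% (26.3 to 38.3%) at 150 to 200 kb. At 200 to 250 kb it was 26.9% (20.4 to 34.3%), at 250 to 300 kb 14.0% (7.66 to 22.7%), at 300 to 400 kb 19.1% (11.8 to 28.6%) and at 400 to 500 kb 20.4% (10.6 to 33.5%). Set together, loops of up to 250 kb stood at 29.96% and loops of 250 to 500 kb at 17.4%. Across the 1199 loops, score and length had a Spearman's rho of -0.09, a weak relation given as a description only. The threshold of the interaction caller is not given in the sources used here.

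**Figure D2:**
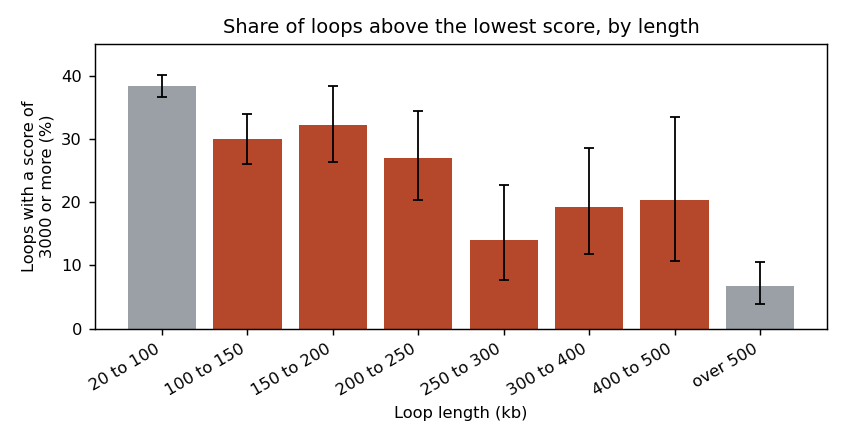
Share of loops with a score of 3000 or more (%) by loop length in kb, with bars for the share and whiskers for the exact 95% binomial interval. The 6 red bars are the loops of 100 to 500 kb, between 14.0 and 32.1%, and the grey bars are the loops of 20 to 100 kb at 38.3% and over 500 kb at 6.69%.

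One of the 2 strongest long-range contacts lay at a pluripotency gene. Joint first with a score of 14000 was a 108 kb loop on chromosome 3 that joined 34548775 with 34657024. Its left anchor is where the Sox2 gene starts on mm9 and its right edge falls in the distal region known as the Sox2 control region. Sox2 encodes a transcription factor that keeps stem cells pluripotent. The left anchor, 34548775 to 34548885, had 3 partners in all, and the shorter loops there had scores no higher than 2000. One ran upstream from 34541384 and one downstream to 34563364. The right anchor had 5 partners, and its shorter loops came from 34563232, 34590917, 34626711 and 34644152 with scores of 2000, 2000, 3000 and 8000. Both ends were thus also linked by a path of 2 shorter loops through the anchor near 34563232, each with a score of 2000, while the direct loop had 14000. The 108 kb loop outscored every other loop at its 2 ends and passed over 4 listed anchors.

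The other loop with a score of 14000 ran from 133228221 to 133377250 on chromosome 4 and was 149 kb long. Its right anchor, 133377084 to 133377250, also held a loop of score 30000 to a place where the promoter of Arid1a lies on mm9. Arid1a encodes a subunit of the BAF chromatin remodelling complex. A second long loop, from 133216116, reached the same right anchor over 161 kb with a score of 9000. Another, from 133003945, spanned 373 kb with a score of 2000, and the last ran downstream over 136 kb to 133512774, also with a score of 2000. This anchor therefore had 4 long-range partners, and their scores ranged from 2000 to 14000.

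Other high-scoring long-range loops had no shorter loop at either end. A score of 12000 over 128 kb was listed on chromosome 8 for the loop from 19892536 to 20020492. The loop from 19784571 to the same right edge had a score of 10000 over 236 kb. Neither span held any whole loop of up to 100 kb. These 2 loops formed a group of 3 anchors that no other listed loop touched. The loop from 31477121 to 31593074 on chromosome 6 (116 kb, score 9000) and another between 121970476 and 122129264 on chromosome 8 (159 kb, score 8000) had anchors with no other partner at all. On chromosome 7, the loop from 75096613 to 75274458 (178 kb, score 8000) joined neighbouring anchors, each with 1 further long-range partner.

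The remaining loops among the 15 strongest had a shorter loop at 1 or both ends. The loop from 21834790 to 21974177 on chromosome 3 had a score of 13000 over 139 kb, where the shorter loops at its ends reached 3000. The loop from 98393103 to 98512753 on chromosome 4 had a score of 12000 over 119.7 kb. The longest of the 15, from 88651342 to 88910719 on chromosome 17, had a score of 11000 over 259 kb and joined 2 sets of shorter loops that were not otherwise linked within 100 kb. Chromosome 10 held a pair of loops that scored 10000, from 21567905 to 21700902 (133 kb) and from 107736277 to 107871308 (135 kb). The loop from 37107539 to 37216227 on chromosome 17, near Zfp57 and Gabbr1 on mm9, had a score of 8000 and passed over 5 listed anchors. The last of the 15, from 30492702 to 30621325 on chromosome 3, had a score of 7000 and is the first by position of 8 loops with that score.

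Another of the loops with a score of 7000 ended just upstream of Nanog. It ran from 122552261 to 122653252 on chromosome 6 and is named after its values were seen. Nanog encodes a homeodomain factor of the pluripotency network. The loop was 101 kb long, and a path of 2 shorter loops also linked its ends. Its left anchor had 7 partners and its right anchor 6, and the strongest shorter loop at each end had a score of 5000. In all, 22 loops on 9 chromosomes had a score of 7000 or more, with lengths of 101 to 259 kb and a median of 136 kb. Of these 22, 8 had ends that shorter loops also linked, 5 joined separate sets of shorter loops, 4 had shorter loops at 1 end and 5 at neither.

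**Figure D3:**
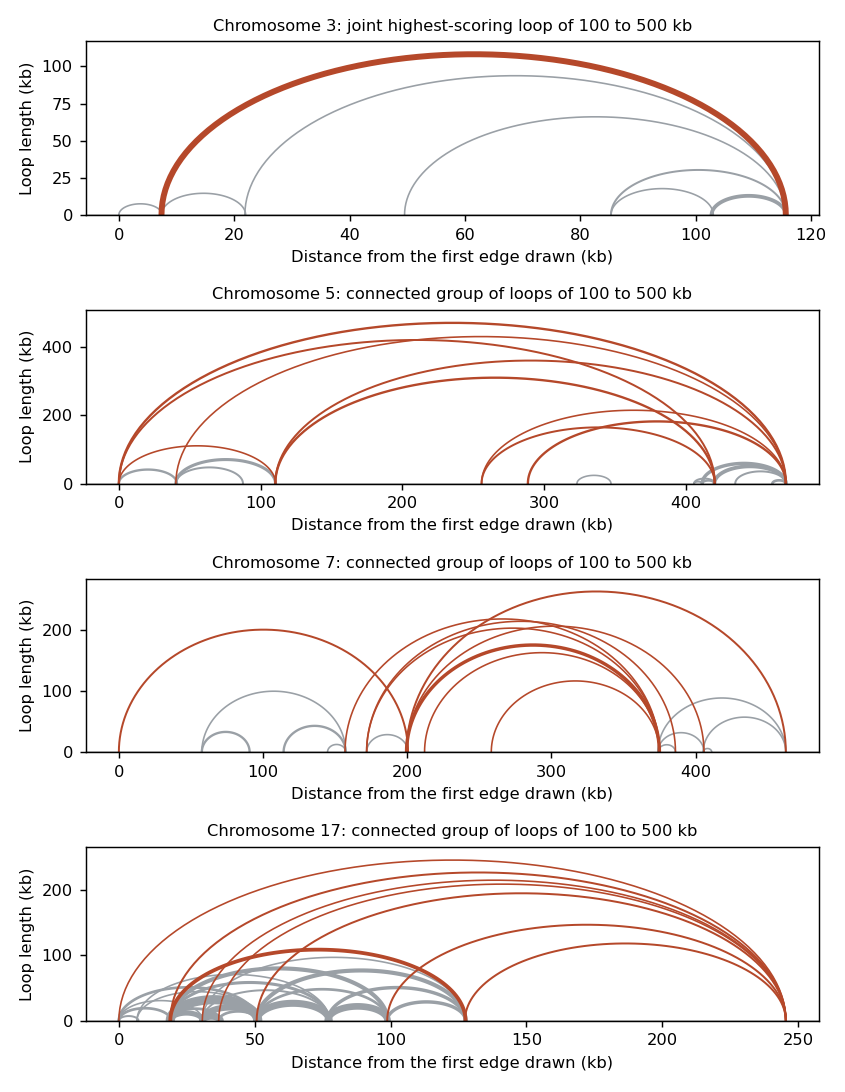
Loops around the 108 kb loop of chromosome 3 with a score of 14000 and in 3 connected groups of long-range loops, drawn as arcs whose height is the loop length (kb) over the distance from the first edge drawn (kb). Red arcs are loops of 100 to 500 kb, grey arcs are other loops, and wider lines have higher scores. On chromosome 17 the 7 arcs that end at the right-most anchor are red and no grey arc ends there.

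Most long-range loops started or ended at an anchor that shorter loops used as well. The 1199 loops had 2029 anchors, 21.6% of the 9407 anchors resolved from the whole list. Of these 2029, 1120 (55.2%, 53.0 to 57.4%) also held a loop of up to 100 kb, 85 (4.19%) held a loop over 500 kb, and 797 (39.3%) held no other loop. Anchors of long-range loops had 2.27 ± 1.49 partners (SD over anchors) against 1.47 ± 0.854 for the other 7378 anchors. At least 2 partners of any length were held by 60.7% (58.6 to 62.9%) of the former and 31.4% (30.3 to 32.4%) of the latter. An anchor with more partners has more chances to hold a long one, so this difference follows at least in part from the choice of loops. Whether any of it remains beyond that choice was not tested. Among anchors with both edges known, width differed little, with a median of 360 bp over 701 long-range anchors and 347 bp over 1383 others. Of these, 27.0% (23.7 to 30.4%) and 24.7% (22.5 to 27.1%) were 600 bp wide or more. Both edges are known only where 1 loop starts and another ends, so anchors with a single loop are left out.

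Taken loop by loop, 419 of the 1199 long-range loops (34.9%, 32.2 to 37.7%) had another loop of up to 100 kb at both ends. A further 542 (45.2%, 42.4 to 48.1%) had one at 1 end and 238 (19.8%, 17.6 to 22.2%) at neither. In loops of 20 to 100 kb, both ends held another such loop in 43.4% (41.7 to 45.1%) and neither end in 21.5% (20.1 to 22.9%). Over 500 kb, these shares were 27.2% (21.8 to 33.1%) and 28.3% (22.9 to 34.3%), and at 5 to 20 kb they were 32.3% (30.6 to 34.0%) and 30.3% (28.7 to 32.0%), so there was no single trend with length. With a minimum score of 3000, 33.1% of the long-range loops had no shorter loop at either end. This minimum removed the weaker short loops at their ends as well. In the full list, 58 of the 329 long-range loops with a score of 3000 or more had no shorter loop at either end. The intervals of the shares with both ends in use did not overlap between loops of 20 to 100 kb and of 100 to 500 kb. Loops with both ends in use share anchors with other loops, so these intervals are likely too narrow and the contrast is a description only. Of the 961 long-range loops with a shorter loop at an end, 83 (8.64%) scored above all the shorter loops at both ends, 227 (23.6%) tied with the strongest of them and 651 (67.7%) scored below it. A long-range loop at the lowest score cannot come out above a neighbour, and the strongest of several loops was taken, so these counts do not rank single pairs of loops.

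**Figure D4:**
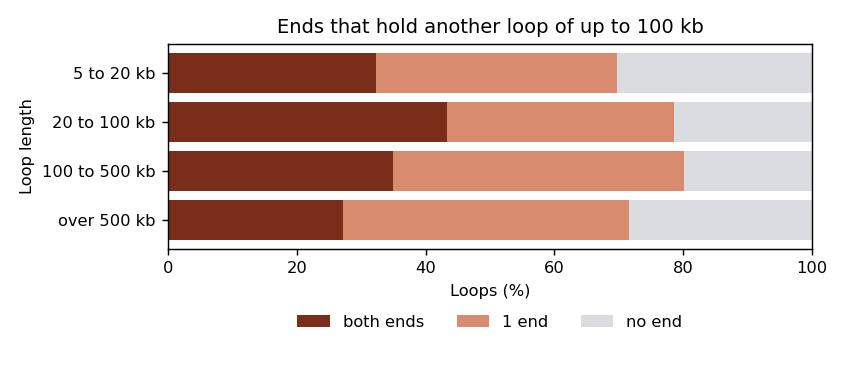
Share of loops (%) in which both ends, 1 end or no end hold another loop of up to 100 kb, as stacked bars for 4 length ranges. Both ends are in use in 32.3% of loops of 5 to 20 kb, 43.4% of loops of 20 to 100 kb, 34.9% of loops of 100 to 500 kb and 27.2% of loops over 500 kb.

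The ends of long-range loops lay more often in separate sets of short loops than in a single set. With only loops of up to 100 kb considered, anchors joined directly or through each other form a connected set. The ends lay in 2 different sets in 314 long-range loops (26.2%, 23.7 to 28.8%) and in the same set in 105 (8.76%, 7.22 to 10.5%). With a minimum score of 3000 these shares were 16.1% and 5.78%. The minimum removed weaker short loops too, and with them parts of the sets. With sets from the full list, 92 of the 329 long-range loops with such a score lay between sets and 45 within 1. In these 105 loops the shortest path between the ends took 2 short loops in 54, 3 in 36 and 4 or more in 15. Loops within a set had a median length of 119.9 kb and were at most 198 kb long, as pieces of up to 100 kb limit what a path can span. The split between 1 set and 2 sets therefore follows at least in part from the choice by length. Sets leave out longer loops, so 2 sets can also be linked by other long-range loops. Loops between sets had a median of 171 kb, and those with no shorter loop at either end one of 175 kb. Scores of at least 3000 occurred in 42.9% (33.2 to 52.9%) of loops within a set and in 29.3% (24.3 to 34.7%) of loops between sets. They occurred in 24.7% (21.1 to 28.6%) of those with short loops at 1 end and 24.4% (19.1 to 30.3%) of those with none.

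The median loop passed over 3 listed anchors, with quartiles of 1 and 5 and at most 21, against a median of 1 in loops of 20 to 100 kb. Neighbouring anchors were joined by 217 long-range loops (18.1%, 16.0 to 20.4%), against 43.6% (41.9 to 45.4%) of loops of 20 to 100 kb. This share was 94.2% at 5 to 20 kb and 7.48% over 500 kb. A longer span leaves room for more listed anchors, so both contrasts follow at least in part from the choice by length. With a minimum score of 3000, which also leaves fewer listed anchors, 31.6% of the long-range loops joined neighbouring anchors. The span held no whole loop of up to 100 kb in 287 long-range loops (23.9%) and 5 or more in 309 (25.8%). Those with none were above the lowest score in 24.4% (19.5 to 29.8%).

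In 162 long-range loops (13.5%, 11.6 to 15.6%) another anchor between the ends was joined to both, which closes a triangle with the long loop as its longest side. This share was 18.2% (16.9 to 19.6%) in loops of 20 to 100 kb. Long-range loops with such an anchor had a score of 3000 or more in 47.5% (39.6 to 55.5%), and those without one in 24.3% (21.7 to 27.0%). The intervals did not overlap, but they treat loops as independent. A loop that closes a triangle shares both of its anchors with other loops, so its interval is likely too narrow and the contrast is a description only. Scores were not split in this way for loops of 20 to 100 kb. Whether the contrast is particular to long-range loops was therefore not tested.

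Long-range loops gathered at some anchors and in some groups. Of the 2029 anchors, 292 (14.4%) had 2 or more long-range partners and 60 (2.96%) had 3 or more. Of those 60, 22 had all their long-range partners upstream, 18 had all downstream and 20 had them on both sides. Linked through shared anchors, the 1199 loops formed 843 groups, of which 646 were a single loop. The other 553 loops were above the lowest score in 35.6% (31.6 to 39.8%), against 20.4% (17.4 to 23.8%) of the 646 single loops. The 553 loops share anchors by definition, so their interval is likely too narrow and the contrast is a description only. In the full list, 424 long-range loops (35.4%, 32.7 to 38.1%) belonged to connected groups of 10 or more anchors, against 30.5% of all loops. These groups were built with the long-range loops included. A long-range loop that joins separate sets thus enlarges the group in which it is counted. At the other extreme, 167 long-range loops (13.9%, 12.0 to 16.0%) had anchors with no other loop, against 16.0% (14.7 to 17.3%) of loops of 20 to 100 kb.

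The anchor with the most long-range partners, 7, ended at 37334120 on chromosome 17. All 7 loops ran upstream, over 118 to 246 kb, to the cluster near Zfp57 and Gabbr1, which encode an imprinting factor and a subunit of the GABA-B receptor. Their left edges were 37088608, 37107539, 37119321, 37125350, 37139336, 37187384 and 37215990. Their scores were 2000 in 3 loops and 3000 in 4. This anchor held no shorter loop. With the loop of score 8000 described above, these made a group of 8 long-range loops, whose span also held 22 loops of up to 100 kb. Up to 8 long-range loops lay over 1 position there, the highest number in the list, which was also reached on chromosomes 5 and 7.

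On chromosome 5, 9 long-range loops joined 7 anchors over 471 kb from 64782626 to 65253379. Left edges at 64782626 and 64893072 each reached both 65203221 and 65253379, with scores of 3000 and 4000 from the first and 4000 and 3000 from the second. The left edge at 65038627 reached the same 2 right edges with scores of 3000 and 2000. The remaining loops were those from 64822858 and 65071325 to 65253379, with scores of 2000 and 4000, and one of 111 kb from 64782626 to 64893187. Thus 8 of the 9 loops ended at 1 of 2 anchors at the right end of the region. The anchor ending at 65253379 had 5 long-range and 4 shorter partners, all upstream.

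On chromosome 7, 9 long-range loops joined 10 anchors over 463 kb from 87833851 to 88296444. They centred on 2 anchors, 88033392 to 88034408 with 4 long-range partners and 88207759 to 88208757 with 5. The loop between these 2 anchors was 175 kb long and had a score of 7000. The other 8 loops of the group had scores of 2000 or 3000. Both central anchors were broad, at 1016 and 998 bp.

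Of the next groups, 3 held 7 long-range loops each, and the 2 with the higher summed scores lay on chromosome 12. The first ran from 12795225 to 12946153, over 151 kb, and its right end is where Mycn lies on mm9. Mycn encodes a MYC family transcription factor. It held 7 long-range loops with scores of 2000 to 4000 between left edges from 12795225 to 12834204 and right edges at 12927926, 12934575 and 12946153. The strongest, of score 4000, joined 12795225 to 12934575. The second group ran from 88108842 to 88288820, over 180.0 kb, with 7 long-range and 23 shorter loops. In it the anchor at 88136854 to 88137042 had 4 long-range partners, all downstream, with scores of 2000 to 4000.

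At least 4 long-range partners were held by 12 anchors, 9 of which had exactly 4. Ties were broken by summed score, so that 10 anchors are named. The anchor at 3212147 to 3212349 on chromosome 7 reached downstream to 3348390, 3366958, 3412161 and 3537978, with scores of 7000, 3000, 2000 and 2000. The score was highest for the nearest partner and lowest for the 2 farthest. The anchor at 174241566 to 174241887 on chromosome 1 had its 4 long-range partners upstream, with a score of 4000 at 229.6 kb and 2000 for the others. On chromosome 2 the anchor at 152175444 to 152175964 had 4 upstream partners over 126 to 245 kb, with scores of 2000 or 3000. On chromosome 3 the anchor ending at 137807360 had 4 upstream partners over 153 to 311 kb and no other loop, with a score of 4000 for the nearest and 2000 for the rest.

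All 5 of the longest loops, at 488 to 499 kb, scored 2000. Chromosome 1 held 3 of them, starting at 35882529, 38186514 and 182209836 and ending at 36372238, 38678814 and 182708617. The loop on chromosome 11 ended at 100632515 and started at 100136107, and the one on chromosome 17 joined 31945047 with 32433397. The loop that starts at 38186514 passed over no listed anchor in 492 kb, whereas the loop on chromosome 11 passed over 11. The 5 shortest, of 100009 to 100203 bp, had scores of 2000 or 3000 and lay on chromosomes 4, 10, 14 and 17.

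Pairs of long-range loops with no shared anchor but with both edges within 20 kb of each other numbered 19 and held 32 loops, or 2.67%. The count turned on this distance, with 3 pairs (6 loops, 0.500%) within 10 kb and 85 pairs (111 loops, 9.26%) within 50 kb. Long-range loops shared an anchor in 471 pairs. Where 2 long-range loops overlapped without a shared anchor, they crossed in 286 of 408 pairs (70.1%, 65.4 to 74.5%) and were nested in 122. A loop nests only inside a longer one, and the length limits leave out loops of up to 100 kb. This split therefore depends on the choice of loops, and 1 loop can enter several pairs. Together the long-range loops covered 163 Mb, out of a summed length of 227 Mb.

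Long-range loops were spread over the chromosomes much as all loops were. The share of each chromosome among the long-range loops was divided by its share of the whole list. This ratio was highest on chromosomes 16 (1.29, 0.921 to 1.75), 12 (1.26, 0.940 to 1.66) and 1 (1.16, 0.929 to 1.43). It was lowest on chromosomes 19 (0.752, 0.520 to 1.05), 11 (0.903, 0.751 to 1.07) and 3 (0.938, 0.693 to 1.24). On all 20 chromosomes with loops the interval included 1. Chromosomes 11 and 17, which are rich in loops, held 114 of 814 and 84 of 550 loops in this range, or 14.0% and 15.3%. The value for chromosome 12 rested in part on its groups: with only the strongest loop of each group kept, its ratio was 0.991.

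**Figure D5:**
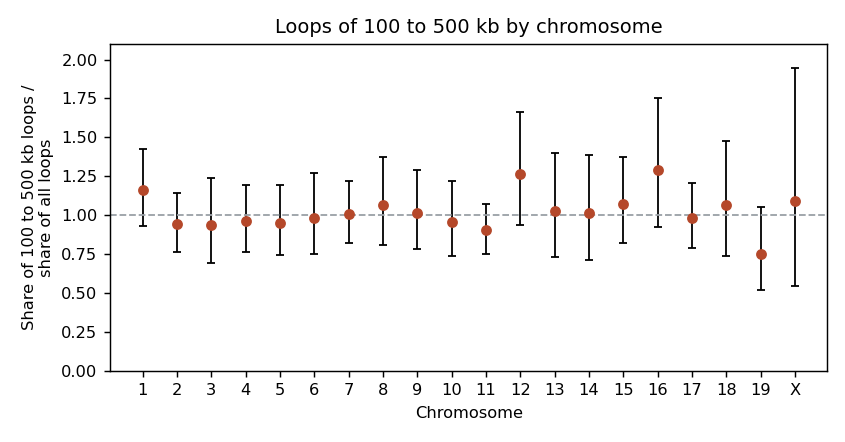
Ratio of each chromosome's share of the loops of 100 to 500 kb to its share of all loops, with points for the ratio and whiskers for the exact 95% binomial interval of the former share. The points lie between 0.752 on chromosome 19 and 1.29 on chromosome 16, and all 20 intervals include the dashed line at 1.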

How the data were processed

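BRD2 ChIA-PET was done on 2 samples of 1 group. Per the file header, the authors deposited 1 list of high-confidence interactions from the merged dataset, and per the submitters' processing notes cutadapt, Bowtie and mm9 were used. Caller, thresholds and read numbers are not stated there. The deposited score of a loop is a multiple of 1000, with 2000 as the lowest, and its unit is not stated. The first start and end columns were read as a loop's outer edges, an inference from the values. The second pair repeats the left edge in all 7732 loops and was not used. A right edge less than 5000 bp after a left edge closed the same anchor. The steps were checked on simulated loops with known answers. Simulated anchors always lay more than 5000 bp apart, so the check did not cover anchors closer together than that. Named items are the 15 loops with the highest score, the 5 longest and 5 shortest, the 10 anchors with the most long-range partners, the 5 largest groups and the 3 chromosomes at each extreme. Ranges, lists and rules were chosen with earlier results of these data known. There is no test between samples. Genes and sequence at the anchors, planned for the case that an mm9 annotation was at hand, were not analysed here. Python 3.11.15, pandas 2.3.3, scipy 1.17.1 and matplotlib 3.10.9 were used.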

Additional observations from a re-analysis of the deposited data

How the results depend on the processing

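Of 59 alternatives to 22 results, 36 left the value within its interval (for counts, within 1.5 times) and 23 moved it, and the cause was not tested. All 24 for the 6 named chromosomes were among the former, where intervals are wide. On chromosome 12 the ratio went from 1.26 to 1.56 at a minimum score of 3000 and still counted as within. Leaving out loops over 500 kb removes no loop of up to 500 kb and had little room to move some values. It left 2029 long-range anchors, 55.2% of them with a shorter loop and 14.4% with 2 or more long-range partners. The tally is therefore no measure of stability. The minimum score of 3000 was applied to loops of every length, so weaker shorter loops were left out as well. At this minimum there were 329 long-range loops (10.1% of the list) with 585 anchors in 260 groups. Then 42.7% of their anchors held a shorter loop, 10.8% had 2 or more long-range partners and 47.7% had 2 or more of any length. The ends lay in 1 set of short loops in 5.78%, in 2 sets in 16.1% and in none in 33.1%, while 31.6% joined neighbouring anchors and 11.6% closed a triangle. With all edges closer than 10000 bp joined, the share of anchors with a shorter loop was 51.3% and with 2 or more partners 57.2%. Loops between 2 sets were then 22.8%, those with no shorter loop 23.3% and those between neighbours 21.8%. The share above the lowest score was 30.6% with the strongest loop per group, 17.4% at 250 to 500 kb, 20.4% without loops that share an anchor with another long-range loop, and 4.34% with 5000 as the bound. Parallel pairs numbered 3 within 10 kb and 85 within 50 kb. Leaving out single groups or sharing loops, keeping 1 loop per group by chromosome and limits of 90 and 550 kb were chosen after seeing the data. Leaving out a replicate was not run, as the authors merged both. No paired analysis was possible because there is only 1 group. The depth is unknown, so contacts below the score of 2000 cannot be judged.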
